A study of Anopheles coluzzii and Anopheles merus with 32 samples.

Results

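The prophenoloxidase genes of 2 closely related malaria mosquitoes, Anopheles merus and Anopheles coluzzii, were followed across larval age and water. The family was taken as the 9 identifiers named PPO1 to PPO9, and 7 of them were among the 11025 identifiers of the expression table: PPO1 (AGAP002825), PPO2 (AGAP006258), PPO3 (AGAP004975), PPO4 (AGAP004981), PPO5 (AGAP012616), PPO7 (AGAP004980) and PPO8 (AGAP004976). PPO6 (AGAP004977) and PPO9 (AGAP004978) are not analysed here. The members were chosen by name, with earlier results of these data known. All 7 had a mean of at least 1 CPM (read counts relative to library size) over the libraries, the minimum for testing, as did 10505 identifiers in all.

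Prophenoloxidases are copper-containing proenzymes that insects make largely in hemocytes, the circulating blood cells, and release into the hemolymph. Clip-domain serine proteases cleave them to active phenoloxidase, which oxidises phenols to quinones on the way to melanin. Melanin seals wounds and encapsulates parasites and microbes, and quinones from related reactions harden the cuticle. Several family members lie next to each other in the genome of Anopheles gambiae, and An. gambiae PPO1 is known for its regulation by the moulting hormone 20-hydroxyecdysone. For the other members no separate role is given here.

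Each library was made from whole larvae, 35 to 50 in a pool, that had grown up in freshwater (FW) and were then kept for 6 h in saltwater (SW) or in FW. The 8 groups of 4 libraries were An. merus in SW and in FW at 18 h after hatching, An. merus in SW and in FW at 66 h, An. coluzzii in SW and in FW at 18 h, and An. coluzzii in SW and in FW at 66 h, where the age is that at the start of the exposure. The series sets the species against each other as euryhaline (An. merus, tolerant of a wide range of salinity) and stenohaline (An. coluzzii). The salinity of the SW, the strains, and whether replicate pools were reared apart are not given in the sources used here, and p-values therefore reflect only how these libraries vary, some of which may be technical.

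Read totals, recovered from the deposited values in 31 of the 32 libraries, were 3769859 to 16633623. In RNA from whole larvae, fewer hemocytes and less prophenoloxidase RNA per hemocyte cannot be told apart. The gene name table available here held 0 of the 11025 identifiers. Marker lists of hemocytes and melanisation therefore could not be looked up, and the cell content was not checked. Differences were tested with limma on log2(CPM + 1) with Benjamini-Hochberg adjustment over the 10505 genes, and a gene is called at an adjusted p below 0.05. Within groups the family varied more between libraries than most genes. The standard deviation of log2(CPM + 1) around the group mean was 0.40 for PPO2, the lowest of the members, and 0.86 for PPO1, the highest, against a median of 0.22 over all tested genes. PPO2 stood at the 90.2nd percentile of the tested genes and PPO1 at the 98.7th. Directions hold relative to the scaling the authors chose. When the libraries were instead given equal sums, the median log2 difference of all tested genes moved by -0.188 and -0.205 under SW in An. merus, by -0.393 to -0.13 between species and by -0.459 and -0.432 between ages, and no called member changed sign. Over all genes, replicates 1 and 2 stood apart from replicates 3 and 4 most clearly in FW An. coluzzii at 18 h. There, deviations correlated at 0.305 and 0.361 within these pairs and at -0.711 to -0.585 across them. At 66 h the values within pairs were -0.295 and 0.275 in FW An. coluzzii (across -0.613 to -0.313). They were 0.0378 and -0.307 in FW An. merus (-0.576 to -0.208) and -0.202 and -0.245 in SW An. coluzzii (-0.563 to -0.168). Deviations in a group sum to 0, so values below 0 arise without a split. At 66 h the members themselves were split in this way. Replicates 1 and 2 both lay above replicates 3 and 4 for 7 of 7 members in FW An. merus and for 6 of 7 in FW An. coluzzii, and they lay below them for 6 of 7 in SW An. coluzzii. In the other groups at most 3 of 7 were split in 1 direction. The share of all tested genes split in these ways was not counted, so whether the split is particular to the members was not tested. The members also varied together within groups, so these counts are not independent observations. Calls that changed when such a pair of libraries was left out of these groups are given beside the results.

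**Figure D1:**
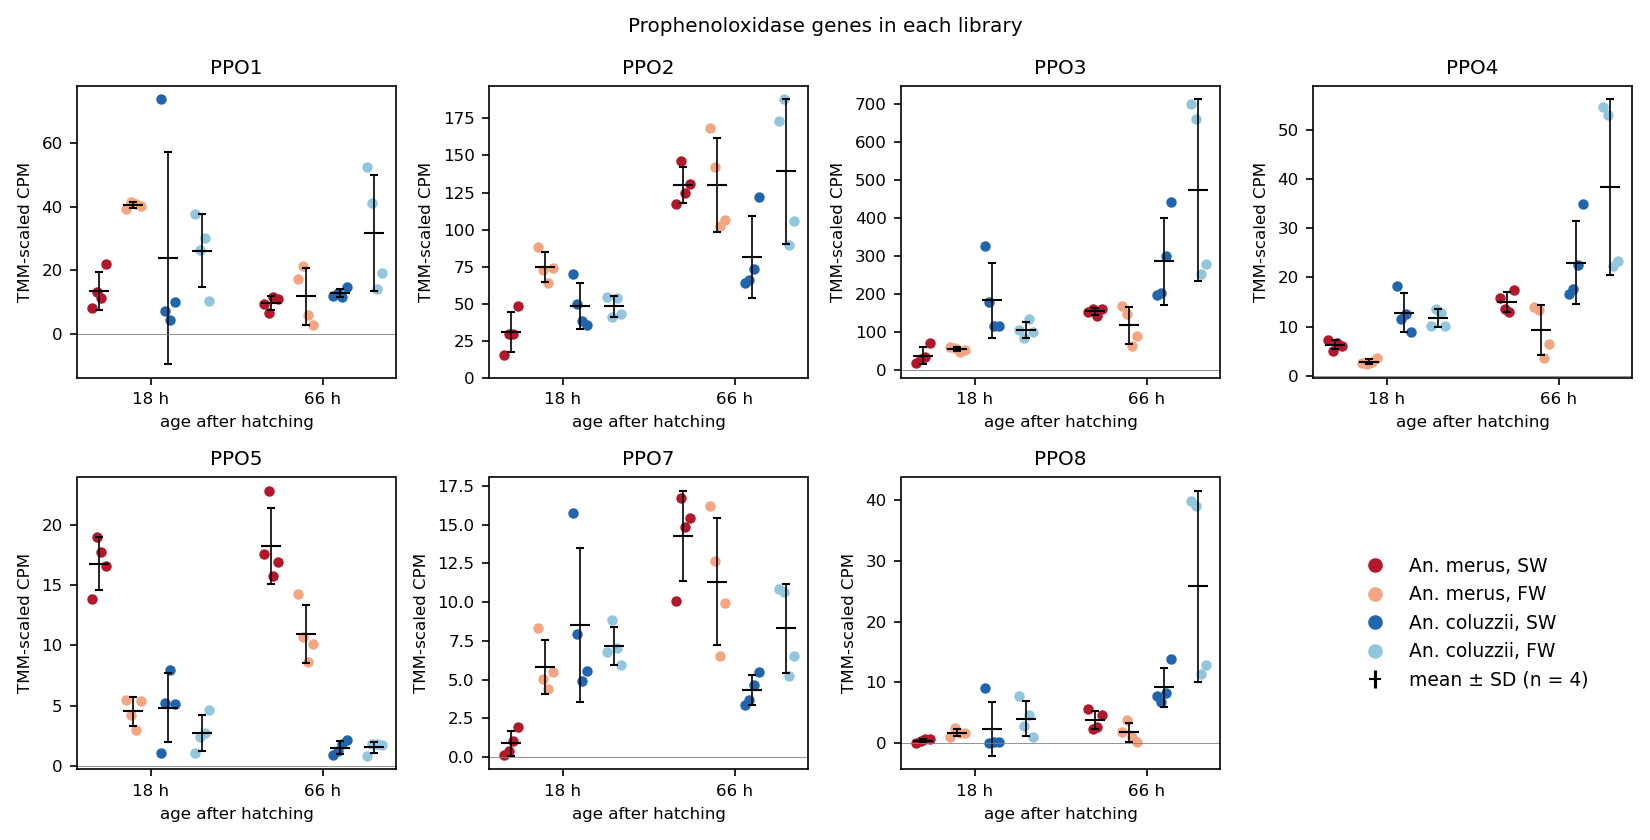
TMM-scaled CPM (linear axis) of the 7 prophenoloxidase genes in each of the 32 libraries (points), by age, species and water, with the mean ± SD of each group of 4 in black. PPO7 and PPO8 have their lowest group means in SW larvae of An. merus at 18 h (0.88 and 0.383 CPM), PPO5 is highest in the SW groups of An. merus, and the FW libraries at 66 h spread widely in both species.

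The first question of the design is what 6 h of SW did to the family in An. merus, and at 18 h it moved members in opposite directions. PPO7 and PPO2 fell, PPO1 fell by a less stable call, and PPO5 and PPO4 rose. PPO7 fell to 15.1% of its FW mean, while PPO5 rose 3.72-fold. The count of called members was 5 of 7, 2 higher and 3 lower, where 51.7% of all tested genes were called, 25.2% higher and 26.5% lower. The members' count was not tested against that background. The median log2 change of the 7 members was -0.95, against -0.02 over all tested genes.

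PPO7 had 0.159, 0.382, 1.04 and 1.94 CPM in the SW libraries of An. merus at 18 h, against 8.34, 5.02, 4.41 and 5.52 CPM in the FW libraries. All SW libraries lay below all FW libraries, and the SW values rest on 1, 5, 18 and 24 reads. The log2 change was -1.92 ± 0.30 (SE, adjusted p = 5.2e-06, n = 4 in each group, limma). PPO2 had 15.3, 29.7, 29.1 and 48.2 CPM in SW larvae, against 88.5, 72.9, 63.6 and 74.1 CPM in FW larvae. Its groups did not overlap either, and the log2 change was -1.36 ± 0.27 (adjusted p = 0.00015, limma). PPO1 had 8.11, 13.2, 11.3 and 22.0 CPM in SW larvae, against 39.2, 41.3, 40.9 and 40.1 CPM in FW larvae. These FW libraries were the most even of any group for PPO1, with a mean of 40.4 ± 0.927 CPM (SD, n = 4), and the SW mean was 13.6 ± 5.94 CPM. The log2 change of PPO1 was -1.58 ± 0.60 with an adjusted p of 0.029 (limma). The SW and FW libraries of PPO1 did not overlap, and the standard error was pooled over all 8 groups. That call was lost in 7 of 16 alternatives. It was lost without FW replicate 2, 3 or 4 (adjusted p = 0.053, 0.051 and 0.051, limma) and without SW replicate 1, 2 or 3 (adjusted p = 0.080, 0.051 and 0.059). Averaging the libraries in pairs also ended it. The call held with the compared groups only, with equal library sums (adjusted p = 0.014, limma) and in the count test edgeR. Over the 16 alternatives the log2 change of PPO1 ran from -1.83 to -1.38.

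PPO5 rose in the same larvae. It had 13.8, 19.0, 17.7 and 16.6 CPM in SW larvae, against 5.46, 4.25, 2.94 and 5.40 CPM in FW larvae, with no overlap. The log2 change was 1.71 ± 0.31 (adjusted p = 3.4e-05, limma, n = 4 in each group). PPO4 had 7.32, 5.13, 6.64 and 6.14 CPM in SW larvae, against 2.58, 2.45, 2.80 and 3.56 CPM in FW larvae, again without overlap. Its log2 change was 0.93 ± 0.30 (adjusted p = 0.013, limma), and with a pseudocount of 4 in place of 1 its adjusted p was 0.052. PPO4 and PPO7, which moved in opposite directions, have adjacent identifier numbers.

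PPO8 and PPO3 were not called in An. merus at 18 h. PPO8 had 0, 0.306, 0.578 and 0.647 CPM in SW larvae, against 0.993, 2.45, 1.62 and 1.61 CPM in FW larvae. All SW libraries were below all FW libraries, but the values rest on 0 to 10 reads in SW, and the log2 difference of -0.95 had an adjusted p of 0.17 (limma). With the libraries of the compared groups only, PPO8 was called (adjusted p = 0.0015, limma). A count of 0 in SW replicate 1 allows up to 0.477 CPM at 3 reads. PPO3 had 16.9, 28.8, 33.4 and 70.4 CPM in SW larvae, against 59.5, 56.5, 47.4 and 51.0 CPM in FW larvae. Replicate 4 in SW was above every FW library, the other 3 were below them, and the log2 difference was -0.69 (95% interval -1.50 to 0.13). Without that SW library it was -1.05 with an adjusted p of 0.030 (limma). The libraries of 6 of the 7 members did not overlap between waters at 18 h, beside 50.3% of all tested genes.

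At 66 h SW left a different picture in An. merus: PPO4 was the 1 called member of 7, where 57.2% of all tested genes were called. PPO4 had 15.9, 13.6, 13.0 and 17.4 CPM in SW larvae, against 13.9, 13.4, 3.73 and 6.47 CPM in FW larvae. The groups overlapped, and the SW libraries exceeded mainly FW replicates 3 and 4. The log2 change was 0.76 ± 0.30 (adjusted p = 0.034, limma). Against FW replicates 1 and 2 alone it was 0.11 (adjusted p = 0.78), and against FW replicates 3 and 4 alone it was 1.42 (adjusted p = 0.00054). The call was also lost without FW replicate 3 or 4 (adjusted p = 0.20 and 0.093), without SW replicate 1 or 4 (0.065 and 0.081), with equal library sums (0.15), and in the count test edgeR (0.084).

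PPO5 had 17.6, 22.8, 15.7 and 16.9 CPM in SW at 66 h, against 14.2, 10.7, 8.58 and 10.1 CPM in FW. All SW libraries lay above all FW libraries, and it was the 1 member of 7 without overlap, beside 49.9% of all tested genes. Its log2 difference of 0.70 (95% interval 0.07 to 1.33) just missed the call, with an adjusted p of 0.052 in limma. The same difference was called in edgeR (adjusted p = 0.043) and without FW replicate 1 (0.037). PPO7, the member with the largest fall at 18 h, had 10.04, 16.7, 14.9 and 15.4 CPM in SW and 16.2, 12.6, 6.49 and 9.95 CPM in FW at 66 h, with overlap. PPO2 averaged 129.8 ± 12.2 CPM in SW and 130.0 ± 31.5 CPM in FW (SD, n = 4 each), a log2 difference of 0.02 (95% interval -0.53 to 0.58). PPO1, PPO3 and PPO8 overlapped as well, with log2 differences of 0.04, 0.50 and 0.93. With equal library sums, those of PPO1 and PPO2 were -0.19 and -0.22.

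The difference between the SW changes at the 2 ages was tested directly in An. merus. It was called for PPO7, at 2.27 ± 0.42 on the log2 scale (66 h over 18 h, adjusted p = 0.0007, limma), and for PPO2, at 1.38 ± 0.38 (adjusted p = 0.017). Those 2 of 7 members stand beside 13.3% of all tested genes. PPO2 lost its call without FW replicates 3 and 4 at 66 h (1.10, adjusted p = 0.10). For PPO4, called higher under SW at 18 h and, by a call that many alternatives ended, at 66 h, the difference was -0.16 (95% interval -1.04 to 0.72).

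**Figure D2:**
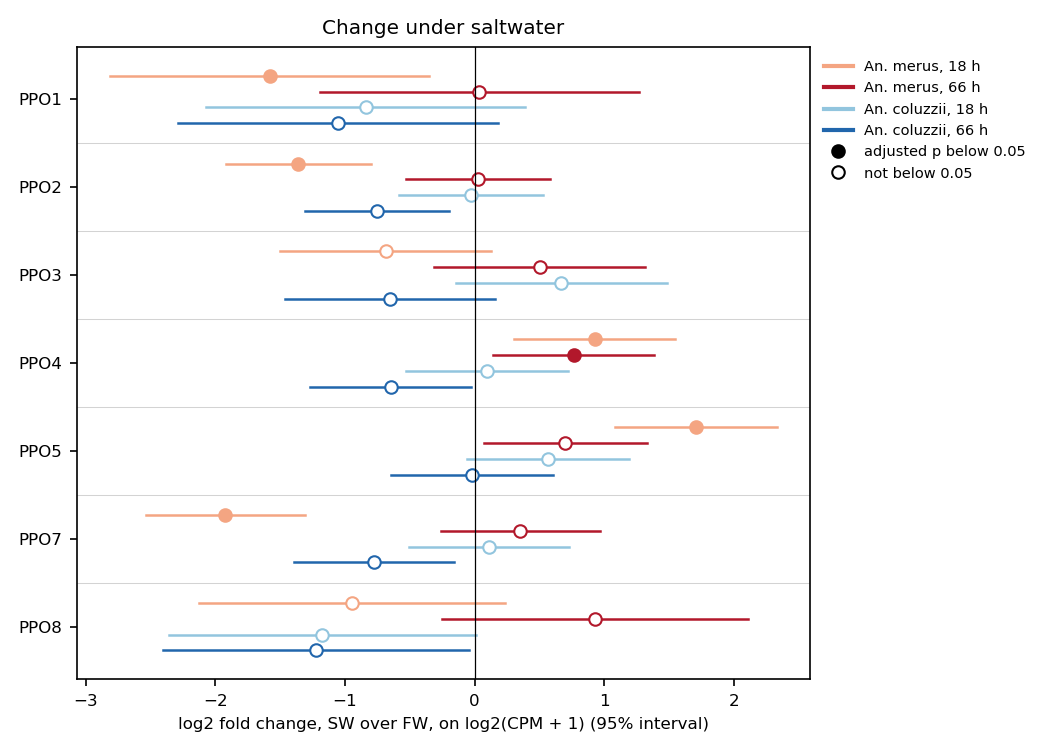
Log2 difference of SW over FW on the log2(CPM + 1) scale for each prophenoloxidase gene, with 95% intervals from limma (n = 4 libraries in each group), in An. merus and An. coluzzii at 18 h and 66 h. Filled points have an adjusted p below 0.05. In An. merus at 18 h PPO7, PPO2 and PPO1 lie below 0 and PPO4 and PPO5 above it, while none of the An. coluzzii points is filled.

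In An. coluzzii, for which the same question was asked, none of the 7 members was called under SW at either age. At 18 h 8.25% of all tested genes were called, and 0 members had an unadjusted p below 0.05. At 66 h 2.24% of all tested genes were called, and 4 members had an unadjusted p below 0.05 in limma. All tested genes were not counted at that unadjusted threshold, so this count cannot be set against the share called. The count test edgeR called 0 members at both ages, beside 6.8% of all tested genes at 18 h and 1.91% at 66 h. The intervals do not exclude sizeable differences: for PPO7 at 18 h, for example, the log2 difference was 0.11 with a 95% interval of -0.50 to 0.72.

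SW replicate 1 of An. coluzzii at 18 h stood far from the other libraries of its group in 2 members. PPO8 had 9.03, 0, 0.112 and 0.213 CPM in SW larvae, against 7.66, 2.72, 4.61 and 0.941 CPM in FW larvae. The last 3 SW libraries hold 0, 1 and 1 reads of PPO8, and the 0 allows up to 0.355 CPM at 3 reads. PPO1 had 73.6, 7.34, 4.36 and 10.002 CPM in SW larvae, against 37.6, 26.3, 30.2 and 10.5 CPM in FW larvae. PPO5 went the other way in that library, with 1.05, 5.21, 7.94 and 5.11 CPM in SW larvae, against 1.03, 2.38, 2.74 and 4.64 CPM in FW larvae. Without that library PPO8 fell by 1.97 on the log2 scale (adjusted p = 0.0065, limma), PPO1 fell by 1.65 (adjusted p = 0.027) and PPO5 rose by 1.01 (adjusted p = 0.0083), so that 3 of 7 members were called, beside 14.3% of all tested genes. With it, their log2 differences were -1.17, -0.84 and 0.57. PPO5 was also called without FW replicates 3 and 4 (0.97, adjusted p = 0.048, limma).

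PPO3, whose value in that library was also the highest of its group, had 325, 178, 115 and 114 CPM in SW at 18 h, against 106, 83.5, 133 and 100.1 CPM in FW, with overlap. PPO2 averaged 48.5 ± 15.7 CPM in SW and 48.1 ± 7.10 CPM in FW (SD, n = 4 each). PPO4 averaged 12.8 ± 3.93 CPM in SW and 11.7 ± 1.79 CPM in FW. For these 3 members the log2 differences were 0.67, -0.03 and 0.09.

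At 66 h all 7 members had a log2 difference below 0 in An. coluzzii, also with equal sums, with a median of -0.75 against 0.0047 over all tested genes, and none was called. That of PPO5 was only -0.02. Most members varied together within groups, so the signs are not independent observations, and the share of all tested genes below 0 was not counted. The SW and FW groups were both split, in opposite directions. PPO8 had 7.80, 6.77, 8.24 and 13.9 CPM in SW larvae, against 39.9, 39.0, 11.4 and 12.9 CPM in FW larvae. PPO3 had 198, 202, 299.5 and 442 CPM in SW larvae, against 699, 661, 253 and 278 CPM in FW larvae. In both genes FW replicates 1 and 2 were above every SW library and FW replicates 3 and 4 were within their range, while SW replicates 3 and 4 were above SW replicates 1 and 2. PPO2, PPO4, PPO5 and PPO7 had SW replicates 3 and 4 the higher too. PPO1, PPO2, PPO4 and PPO7 had FW replicates 1 and 2 above FW replicates 3 and 4 as well, by a ratio of 1.83 (PPO7) to 2.81 (PPO1). Against FW replicates 1 and 2 alone, PPO2 fell by 1.19 on the log2 scale (adjusted p = 0.040, limma) and PPO4 fell by 1.25 (adjusted p = 0.041). Against FW replicates 3 and 4 alone, no member was called and the log2 difference of PPO3 was 0.02. That of PPO3 was -0.22 without SW replicates 1 and 2 and -1.08 without SW replicates 3 and 4, and neither was called. PPO5 was low in both waters, at 1.51 ± 0.548 CPM in SW and 1.53 ± 0.473 CPM in FW (SD, n = 4 each). The difference of the SW changes between the ages was called for 0 of 7 members in An. coluzzii, beside 0.0762% of all tested genes in limma. The count test edgeR also called 0 members, beside 0.0381% of all tested genes. In limma 2 members had an unadjusted p below 0.05, a threshold at which all tested genes were not counted.

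Whether the species differed in their SW change was tested as an interaction of species and water. At 18 h the interaction was called for PPO7, at -2.03 ± 0.42 on the log2 scale (An. merus over An. coluzzii, adjusted p = 0.001, limma), and for PPO2, at -1.33 ± 0.38 (adjusted p = 0.014). These 2 of 7 members stand beside 21% of all tested genes. PPO5, at 1.14, was called without An. coluzzii FW replicate 1 or SW replicate 3 (adjusted p = 0.019 and 0.017) and without FW replicates 1 and 2 (0.016), and PPO3, at -1.35, without An. merus SW replicate 4 (0.027) and with equal sums (0.048). At 66 h it was called for PPO4, at 1.41 ± 0.43 (adjusted p = 0.013), for PPO8, at 2.15 ± 0.81 (adjusted p = 0.044), and for PPO7, at 1.13 ± 0.42 (adjusted p = 0.042), beside 32.1% of all tested genes. PPO7 thus differed between the species in opposite directions at the 2 ages. The values at 66 h rest on split groups. Without FW replicates 3 and 4 of An. merus the adjusted p was 0.15 for PPO4, 0.23 for PPO7 and 0.21 for PPO8, and without FW replicates 1 and 2 of An. coluzzii it was 0.15, 0.24 and 0.26 for the same genes. Without SW replicates 1 and 2 of An. coluzzii it was 0.097 for PPO4, 0.17 for PPO7 and 0.14 for PPO8, and without SW replicates 3 and 4 it was 0.060 for PPO8. PPO3, at 1.15, was called without FW replicates 3 and 4 of An. coluzzii (1.83, adjusted p = 0.0185) and without FW replicates 1 and 2 of An. merus (1.69, 0.041). Single libraries ended the calls of PPO8 and PPO7 but not that of PPO4. The call of PPO8 was lost without An. merus FW replicate 1, 3 or 4, An. merus SW replicate 1 or 4, An. coluzzii FW replicate 1 or 2, or An. coluzzii SW replicate 1, 2 or 3 (adjusted p = 0.053 to 0.097). That of PPO7 was lost without An. merus FW replicate 3 or 4, An. merus SW replicate 2, 3 or 4, An. coluzzii FW replicate 1 or 2, or An. coluzzii SW replicate 1, 2 or 3 (adjusted p = 0.050 to 0.11). PPO2, at 0.78, was called without An. coluzzii SW replicate 4 (adjusted p = 0.049) and without An. coluzzii FW replicates 3 and 4 (0.023).

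The levels of several members in FW differed between the species. Both species were read against 1 set of identifiers, so a species difference in expression and one in how well the reads of a gene were assigned cannot be told apart. At 66 h in FW PPO8, PPO3, PPO4 and PPO1 were lower and PPO5 higher in An. merus, 5 of 7 members beside 51% of all tested genes (27.1% higher, 24% lower). PPO8 had 1.82, 3.85, 1.04 and 0.193 CPM in An. merus, against 39.9, 39.0, 11.4 and 12.9 CPM in An. coluzzii. The groups did not overlap, and the log2 difference was -3.26 ± 0.57 (adjusted p = 4e-05, limma). PPO3 had 169, 147, 62.4 and 89.3 CPM in An. merus, against 699, 661, 253 and 278 CPM in An. coluzzii, a log2 difference of -1.96 ± 0.40 (adjusted p = 0.00021). PPO4 averaged 9.38 ± 5.07 CPM in An. merus and 38.3 ± 17.9 CPM in An. coluzzii (SD, n = 4 each), a log2 difference of -1.95 ± 0.30. PPO5 had 14.2, 10.7, 8.58 and 10.1 CPM in An. merus, against 0.826, 1.77, 1.80 and 1.74 CPM in An. coluzzii. It ran opposite to the others, with a log2 difference of 2.23 ± 0.31 (adjusted p = 7.1e-07). These 4 differences kept their calls under every alternative run, without FW replicates 1 and 2 or 3 and 4 of either species too. Without FW replicates 1 and 2 of An. coluzzii the log2 difference of PPO3 was -1.28, and without FW replicates 3 and 4 of An. merus that of PPO4 was -1.30. PPO1 had 17.2, 21.3, 5.97 and 2.90 CPM in An. merus, against 52.5, 41.0, 14.2 and 19.0 CPM in An. coluzzii, with overlap. Its call (log2 difference -1.49, adjusted p = 0.040) was lost in edgeR (0.060), without An. merus FW replicate 3 or 4 (0.10 and 0.17) and without An. coluzzii FW replicate 1 or 2 (0.13 and 0.10). Without both An. merus FW replicates 3 and 4 the difference for PPO1 was -0.51, and it was -0.77 when An. coluzzii FW replicates 1 and 2 were left out.

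At 18 h in FW PPO4 was the 1 called member of 7, beside 46.8% of all tested genes. PPO4 had 2.58, 2.45, 2.80 and 3.56 CPM in An. merus, against 10.2, 13.6, 12.8 and 10.1 CPM in An. coluzzii. The groups were far apart, with a log2 difference of -1.72 ± 0.30 (adjusted p = 3.7e-05, limma) that held under every alternative run. PPO3 averaged 53.6 ± 5.43 CPM in An. merus and 105.7 ± 20.7 CPM in An. coluzzii (SD, n = 4 each). Its libraries did not overlap, and the log2 difference of -0.95 had an adjusted p of 0.05046 in limma, just above the threshold. PPO1 and PPO2 did not overlap between the species either, with log2 differences of 0.74 and 0.63 that were not called. PPO5, at 0.64, was called without An. coluzzii FW replicate 4 (adjusted p = 0.024) or FW replicates 3 and 4 (0.020). The 4 members without overlap stand beside 41.9% of all tested genes.

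In SW PPO7 and PPO5 differed between the species at both ages. At 18 h PPO7 had 0.159, 0.382, 1.04 and 1.94 CPM in An. merus, against 15.7, 7.93, 4.92 and 5.53 CPM in An. coluzzii, a log2 difference of -2.31 ± 0.30 (adjusted p = 1.6e-07, limma). At 66 h it had 10.04, 16.7, 14.9 and 15.4 CPM in An. merus, against 3.34, 3.70, 4.67 and 5.48 CPM in An. coluzzii, a log2 difference of 1.52 ± 0.30 (adjusted p = 6.4e-05). The groups did not overlap at either age, and the sign of the difference turned between them. PPO5 was higher in SW An. merus at both ages, by 1.78 ± 0.31 at 18 h (adjusted p = 1.2e-05) and by 2.95 ± 0.31 at 66 h (adjusted p = 1.8e-09). At 66 h its means were 18.3 ± 3.14 CPM in An. merus and 1.51 ± 0.548 CPM in An. coluzzii (SD, n = 4 each), a ratio of 12.1. PPO3 was lower in SW An. merus at 18 h, by a log2 difference of -2.31 ± 0.40 (adjusted p = 1.7e-05), and at 66 h, where the libraries did not overlap, its difference of -0.80 was not called in limma (adjusted p = 0.075). PPO4 and PPO2 were also called at 18 h, with log2 differences of -0.89 and -0.70, and PPO2 at 66 h with 0.72. In edgeR PPO3 was called at 66 h too, and PPO8 was called lower in An. merus at 18 h (adjusted p = 0.039, against 0.47 in limma). The calls of PPO2 were lost with single libraries left out, at 18 h without An. merus SW replicate 1 (log2 difference -0.42, adjusted p = 0.16) or An. coluzzii SW replicate 1 or 2 (0.12 and 0.055), and at 66 h without An. coluzzii SW replicate 1 or 2 or An. merus SW replicate 2 (0.069, 0.062 and 0.055). Without An. coluzzii SW replicates 1 and 2 together, PPO2 at 66 h was at 0.45 (adjusted p = 0.25), and PPO3 (-1.23, 0.030) and PPO4 (-0.88, 0.042) were called. That of PPO4 at 18 h was lost without An. coluzzii SW replicate 1 (0.059). In all, limma called 5 of 7 members in SW at 18 h, beside 60.3% of all tested genes, and 3 of 7 at 66 h, beside 67.3%. With equal library sums, 5 members were called at 66 h beside 68.8% of all tested genes, as PPO3, PPO4 and PPO8 were then lower and PPO2 was not called.

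**Figure D3:**
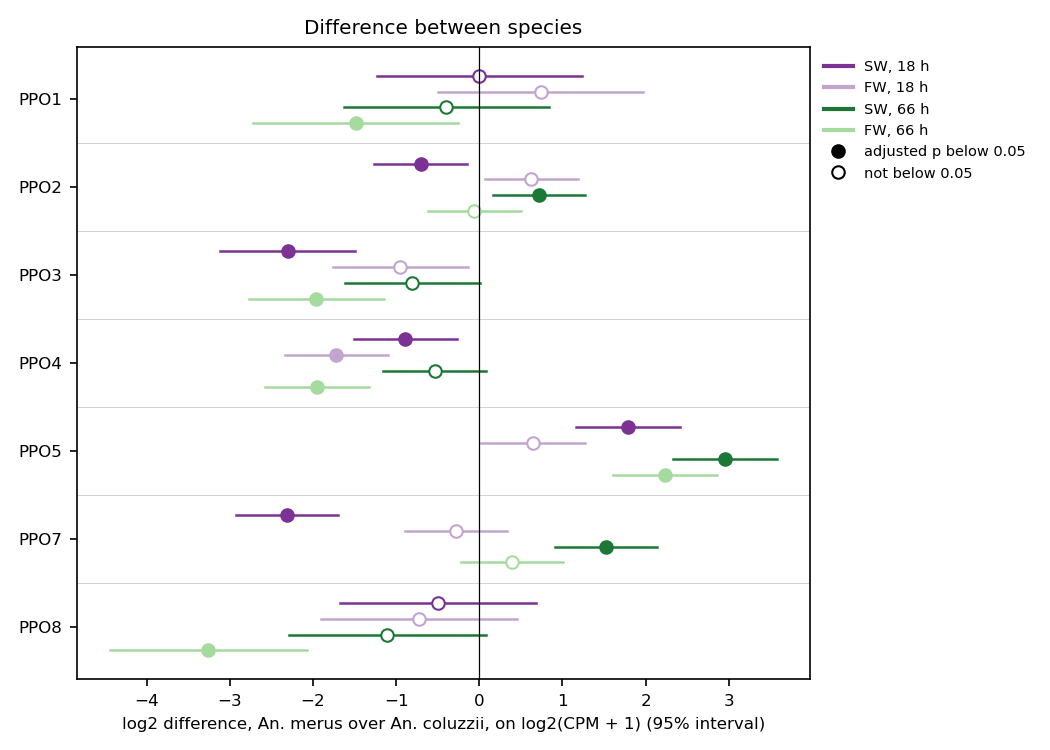
Log2 difference of An. merus over An. coluzzii on the log2(CPM + 1) scale for each prophenoloxidase gene, with 95% intervals from limma (n = 4 libraries in each group), in SW and FW at 18 h and 66 h. Filled points have an adjusted p below 0.05. PPO5 lies above 0 in all 4 comparisons, PPO3 and PPO4 lie below 0 in all 4, and PPO7 in SW lies below 0 at 18 h and above it at 66 h.

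Between 66 h and 18 h in FW, PPO2, PPO3 and PPO4 were higher at 66 h in both species. In An. merus 6 of 7 members were called, 5 higher and 1 lower, beside 50.8% of all tested genes (26.9% higher, 23.9% lower), and in An. coluzzii 4 of 7, all higher, beside 58.6% (29.9% higher). The count in An. coluzzii is near the share of all genes, and with equal library sums that in An. merus was 2 of 7, PPO1 and PPO4, beside 69% of all tested genes. PPO3 averaged 116.9 ± 49.5 CPM at 66 h and 53.6 ± 5.43 CPM at 18 h in An. merus (SD, n = 4 each), a log2 difference of 1.01 ± 0.40 (adjusted p = 0.035, limma). In An. coluzzii it averaged 472.8 ± 240.1 CPM at 66 h and 105.7 ± 20.7 CPM at 18 h, a log2 difference of 2.02 ± 0.40 (adjusted p = 9.6e-05). PPO4 rose by 1.29 ± 0.30 in An. merus (adjusted p = 0.00082) and by 1.52 ± 0.30 in An. coluzzii (adjusted p = 0.0001). PPO2 rose by 0.77 ± 0.27 in An. merus (adjusted p = 0.020) and by 1.46 ± 0.27 in An. coluzzii (adjusted p = 4.4e-05).

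PPO8 was called between the ages in An. coluzzii. It had 39.9, 39.0, 11.4 and 12.9 CPM at 66 h, against 7.66, 2.72, 4.61 and 0.941 CPM at 18 h, a rise of 2.41 ± 0.57 on the log2 scale (adjusted p = 0.00079, limma). In An. merus it averaged 1.73 ± 1.56 CPM at 66 h and 1.67 ± 0.596 CPM at 18 h (SD, n = 4 each), a log2 difference of -0.12. The difference between the species in this age change, -2.53, was not called (adjusted p = 0.070). It was called without An. coluzzii FW replicate 1 at 18 h (0.049) or An. merus FW replicate 2 at 66 h (0.047), and without FW replicates 3 and 4 of An. coluzzii (0.024) or 1 and 2 of An. merus (0.049) at 66 h. PPO1 was lower at 66 h in An. merus, with 17.2, 21.3, 5.97 and 2.90 CPM at 66 h, against 39.2, 41.3, 40.9 and 40.1 CPM at 18 h, a log2 difference of -2.01 ± 0.60 (adjusted p = 0.0066). In An. coluzzii the log2 difference of PPO1 was 0.21 (95% interval -1.02 to 1.45) and -0.24 with equal sums, and the difference between the species was not called (adjusted p = 0.14), except without An. merus FW replicates 1 and 2 at 66 h (-3.20, adjusted p = 0.043). PPO5 had a log2 difference of 1.12 ± 0.31 in An. merus (adjusted p = 0.0031) and -0.47 in An. coluzzii, where it was called without FW replicate 1 at 18 h (-0.73, adjusted p = 0.046) or FW replicates 1 and 2 at 18 h (-0.88, 0.039). This difference between the species, 1.59 ± 0.43, was the 1 called of 7 (adjusted p = 0.026), beside 5.36% of all tested genes. That call was lost without An. coluzzii FW replicate 4 at 18 h or 1 at 66 h (0.059 and 0.061) and without An. merus FW replicate 3 at 18 h or 1 at 66 h (0.069 and 0.061). It was also lost without An. coluzzii FW replicates 3 and 4 at 18 h (0.12) or 1 and 2 at 66 h (0.099), and without An. merus FW replicates 1 and 2 at 66 h (0.12). PPO7 rose by 0.82 ± 0.30 in An. merus (adjusted p = 0.024).

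The 4 calls in An. coluzzii held under every alternative run. Without FW replicates 1 and 2 at 66 h the log2 differences were 1.60 for PPO8, 1.34 for PPO3 and 0.92 for PPO4. Those in An. merus were less firm. Without FW replicates 1 and 2 at 66 h PPO3 (0.48), PPO7 (0.44), PPO2 (0.49) and PPO4 (0.64) were not called, and without FW replicates 3 and 4 PPO1 (-1.04) was not. Single libraries ended 3 of these calls. PPO3 and PPO7 were lost without An. merus FW replicate 1 or 2 at 66 h (adjusted p = 0.12 and 0.10 for PPO3, 0.099 and 0.062 for PPO7) and without replicate 2 or 3 at 18 h (0.054 and 0.074 for PPO3, 0.057 and 0.071 for PPO7), and PPO3 also without replicate 4 at 18 h (0.066). PPO2 was lost without replicate 1 at 66 h (0.074) or 3 at 18 h (0.055).

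**Figure D4:**
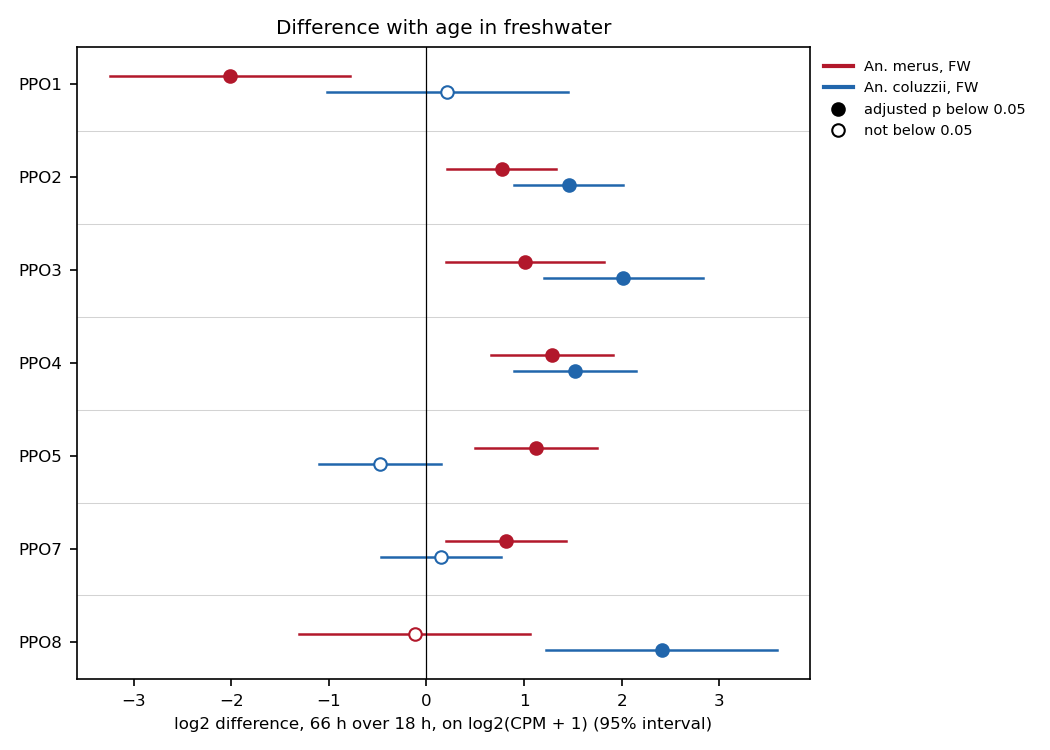
Log2 difference of 66 h over 18 h in FW on the log2(CPM + 1) scale for each prophenoloxidase gene, with 95% intervals from limma (n = 4 libraries in each group), in An. merus and An. coluzzii. Filled points have an adjusted p below 0.05. PPO2, PPO3 and PPO4 lie above 0 in both species, PPO1 lies below 0 in An. merus, and PPO8 lies above 0 in An. coluzzii.

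Ordered by group means, the members reached their highest levels in different groups. PPO2, PPO3, PPO4 and PPO8 were highest in FW An. coluzzii at 66 h, with means of 139.3, 472.8, 38.3 and 25.8 CPM. PPO5 and PPO7 were highest in SW An. merus at 66 h, with 18.3 and 14.3 CPM, and PPO1 in FW An. merus at 18 h, with 40.4 CPM. PPO2, PPO3, PPO7 and PPO8 were lowest in SW An. merus at 18 h, with 30.6, 37.3, 0.88 and 0.383 CPM. Gene lengths were not used, so the levels of different genes are not compared. Neighbours in these orders mostly overlapped. Steps without overlap were found for PPO3 between FW An. merus and FW An. coluzzii at 18 h, for PPO4 between SW and FW An. merus at 18 h, for PPO5 between FW An. merus at 66 h and SW An. coluzzii at 18 h, for PPO7 between SW An. merus at 18 h and SW An. coluzzii at 66 h, and for PPO8 between SW and FW An. merus at 18 h.

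Within groups, 6 of the members varied together from library to library, and PPO5 did not follow them. After group means were taken off, the 15 pairs among PPO1, PPO2, PPO3, PPO4, PPO7 and PPO8 had Pearson correlations of 0.576 to 0.949 over the 32 libraries, with a median of 0.684. The points share their library and its scaling, and the largest of these correlations hardly moved with equal sums (0.950 for PPO2 with PPO3). PPO2 and PPO3 correlated at 0.949, and each was the closest of all tested genes to the other. PPO1 and PPO8 correlated at 0.912, again each the closest to the other, and at 0.866 without SW replicate 1 of An. coluzzii at 18 h. Centring each pair of libraries (replicates 1 and 2, then 3 and 4) on its own mean left 0.888 and 0.887 for these 2 pairs of genes. Other pairs of genes fell further, to 0.150 for PPO2 with PPO4, 0.185 for PPO1 with PPO4 and 0.195 for PPO7 with PPO8. Many non-members were closer than some members: before that centring PPO4 ranked 420 among all tested genes for PPO1, and PPO7 ranked 510 for PPO8. PPO5 correlated at -0.637 with PPO8 and at -0.615 with PPO1. With the other 4 members PPO5 had -0.219 to -0.0529. Without SW replicate 1 of An. coluzzii at 18 h the values were -0.438 with PPO8 and -0.408 with PPO1, and those with the other 4 members turned positive, at 0.0575 to 0.116. With all 32 libraries, that one included, and each pair of libraries centred, PPO5 had -0.802 with PPO8 and -0.796 with PPO1. The 2 deviations of a centred pair are equal and opposite, so they are not separate points.

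**Figure D5:**
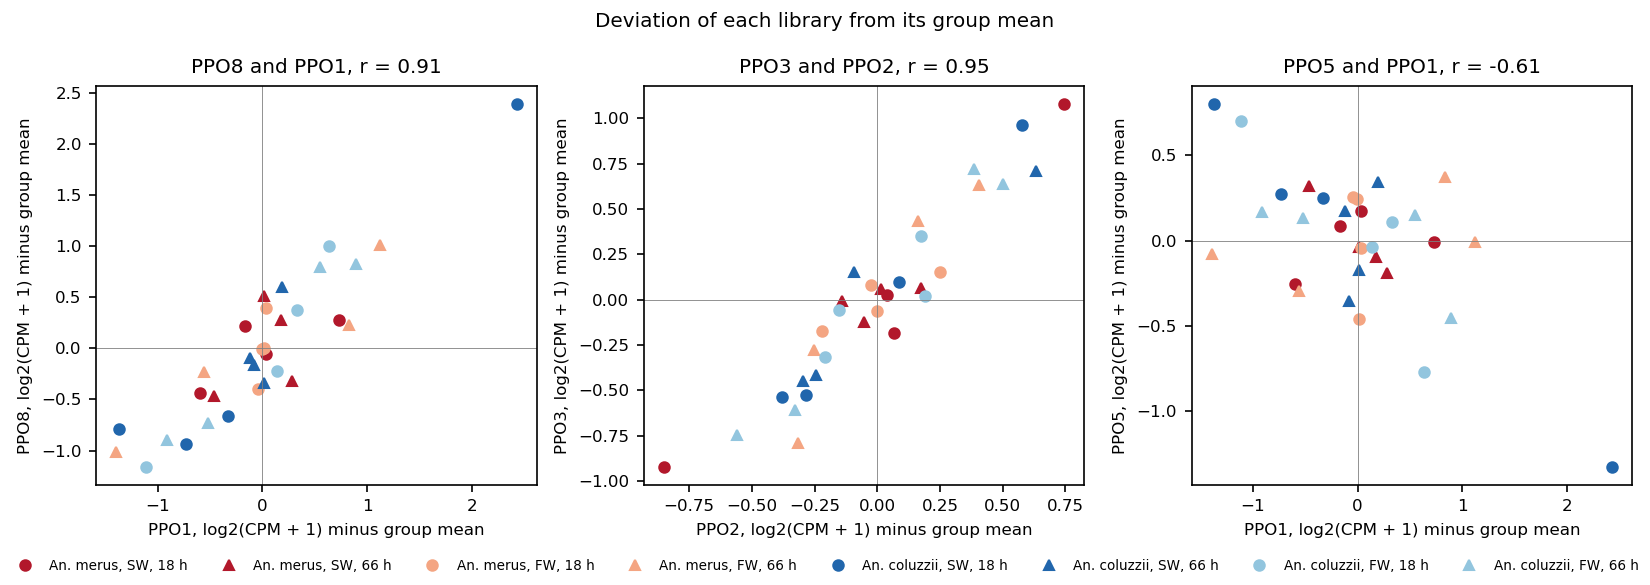
Deviation from the group mean of log2(CPM + 1) in each of the 32 libraries, for PPO8 and PPO1, PPO3 and PPO2, and PPO5 and PPO1, coloured by species and water. Points of PPO2 and PPO3 and of PPO1 and PPO8 lie along a rising line (r = 0.949 and 0.912), and those of PPO1 and PPO5 along a falling one (r = -0.615).

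Over the 8 group means the members were less alike. The highest values were 0.90 for PPO3 with PPO4, 0.84 for PPO3 with PPO8, 0.81 for PPO4 with PPO8 and 0.77 for PPO2 with PPO7. PPO1 ran from -0.56 (with PPO5) to 0.29 (with PPO8), and PPO5 from -0.66 (with PPO8) to -0.08 (with PPO2). PPO4 and PPO7 correlated at 0.30. The non-members closest over group means had correlations of 0.883 (AGAP002572 with PPO1), 0.972 (AGAP001724 with PPO2), 0.991 (AGAP004719 with PPO3), 0.973 (AGAP005005 with PPO4), 0.985 (AGAP000099 with PPO5), 0.967 (AGAP008601 with PPO7) and 0.975 (AGAP007479 with PPO8). Over only 8 points and 10505 genes, high values of this kind are readily found. Over deviations within groups, AGAP012352 was the closest non-member to both PPO2 (0.933) and PPO3 (0.929), and AGAP004566 and AGAP006502 were the closest to both PPO1 (0.907 and 0.895) and PPO8 (0.871 and 0.876). The closest to PPO4, PPO5 and PPO7 were AGAP001177 (0.848), AGAP012067 (0.816) and AGAP004108 (0.882). The files do not pair these identifiers with names.

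One further identifier, AGAP004982, follows directly after that of PPO4 in the numbering. It had 44.1 ± 4.42 CPM in SW and 26.1 ± 5.02 CPM in FW in An. merus at 18 h (SD, n = 4 each), a rise of 0.75 ± 0.17 on the log2 scale (adjusted p = 0.00052, limma). It rose in SW at 66 h too, by 0.95 ± 0.17 (adjusted p = 2.4e-05). In FW it was lower at 66 h than at 18 h in both species, by a log2 difference of -1.63 in An. merus and -1.61 in An. coluzzii, where PPO4 was higher.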

How the data were processed

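Per the labels' protocols, total RNA of whole larvae was treated with DNase and made into libraries with the TruSeq RNA kit v2, with polyA selection; that kit does not mark strand. The authors deposited 1 table of gene-level signal, which its name describes as filtered CPM after TMM scaling (trimmed mean of M values). Tools named in the submitters' processing notes, with no role or version, are edgeR, HTSeq, TopHat2, Bowtie2 and Trimmomatic; the genome build, annotation and read sharing among near-identical family members are not given in the sources used here, so reads split between paralogs are uncertain. Tests had been planned for CPM and were applied to this signal.

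Values were tested as log2(CPM + 1), a scale that understates changes of low genes, with limma 3.58.1 in R 4.3.3 (8 group means, 32 libraries, 24 residual degrees of freedom, trend and robust options, two-sided tests). Benjamini-Hochberg adjustment ran within each of 15 comparisons over the 10505 genes averaging 1 CPM or more; 520 were not tested. Intervals are 95% and unadjusted. Standard errors are those of the moderated test. In 31 libraries 100% of the values were whole multiples of 1 read within 0.01 reads; in 1 library, FW An. merus replicate 1 at 18 h, this could not be established. The read totals of those 31 libraries were 3769859 to 16633623, and 3 reads stood at 0.76 CPM or less in each of them. The 45 replicate pairs with reads had a chi-square of 5.36 to 50.3 per degree of freedom (genes of 20 reads or more), so none was taken as a duplicate deposit. Reads carry no molecular identifiers, so limits at 0 cover counting error only.

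Alternatives were pseudocounts of 0.25 and 4, no filter, a filter of 5 CPM, equal library sums, compared groups only, pair means as units, edgeR 4.0.16 (quasi-likelihood) on the recovered reads of 31 libraries, and each library left out. Leaving out replicates 1 and 2 or 3 and 4 was added after seeing the data, for the FW groups of An. coluzzii at both ages and of An. merus at 66 h, and for SW An. coluzzii at 66 h. The named genes are the family, the 2 genes most correlated with each member over group means and over within-group deviations, from which those printed were taken, and 1 neighbour by identifier. The members and lists were chosen with earlier results of these data known. The gene name table available here held 0 of the 11025 identifiers. The lists of hemocyte, melanisation cascade and cuticle tanning genes therefore could not be looked up, and no list, coordinate or sequence is reported. Figures were drawn with matplotlib 3.10.9, and the model was tested on simulated data.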

Additional observations from a re-analysis of the deposited data

Results flagged for a closer look

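In 4 of 56 combinations of a member and a group of 4, 1 library stood far from the other 3, by a gap to its nearest neighbour that chance exceeds in about 1 in 20 groups. PPO1 at 73.6 CPM and PPO8 at 9.029 CPM were both high in SW replicate 1 of An. coluzzii at 18 h. PPO2 was high, at 122.1 CPM, in SW replicate 4 of An. coluzzii at 66 h, and PPO5 was low, at 0.8256 CPM, in FW replicate 1 of An. coluzzii at 66 h. The cause was not tested.

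A difference between groups in the same contrast was called for 8 of the 35 interactions tested over the members (limma). Of all tested genes, species and water called 21% at 18 h and 32.1% at 66 h. Age and water called 13.3% in An. merus and 0.0762% in An. coluzzii, and species and age called 5.36%. The members' count was not tested against these shares, and with pair means as units none of the 8 was called. The SW change differed between An. merus and An. coluzzii at 18 h by -1.33 for PPO2 and by -2.03 for PPO7 on the log2 scale. At 66 h it differed by 1.41 for PPO4, by 1.13 for PPO7 and by 2.15 for PPO8. Between 66 h and 18 h in An. merus it differed by 1.38 for PPO2 and by 2.27 for PPO7. The age difference in FW differed between An. merus and An. coluzzii by 1.59 for PPO5.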

How the results depend on the processing

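Of the 38 calls of a member, 17 held under every alternative run, and no called value changed sign. Among the 2268 recomputed values, 83 changed sign where neither fit made a call. Counts of called members below are out of 7, with the reported count in brackets. For most of these settings the share of all tested genes called is not given. The counts therefore show how stable the calls are and are not read as a trait of the family. With pair means (replicates 1 and 2, then 3 and 4) as units, SW against FW in An. merus gave 3 (5) at 18 h and 0 (1) at 66 h, the species difference in SW at 18 h gave 3 (5), the age difference in An. merus gave 2 (6), and the interactions gave 0 for species and water at 18 h (2) and at 66 h (3), 0 for age and water in An. merus (2) and 0 for species and age (1). That fit leaves 2 units per group. With equal sums the counts were 0 (1) for SW in An. merus at 66 h, 2 (1) between species in FW at 18 h, 5 (3) between species in SW at 66 h, 2 (6) for age in An. merus and 1 (3) for species and water at 66 h. With a 5 CPM filter they were 2 (1) for SW in An. merus at 66 h and 2 (1) between species in FW at 18 h. With the compared groups only they were 3 (1) and 7 (3) between species in FW at 18 h and in SW at 66 h, and 4 (2) for age and water in An. merus. A pseudocount of 0.25 gave 1 (3) for species and water at 66 h, and one of 4 gave 2 (1) for species and age.

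Without FW replicates 3 and 4 of An. coluzzii at 18 h the counts were 1 (0) for SW at that age, 2 (1) between species in FW and 0 (1) for species and age. Without those of An. coluzzii at 66 h they were 2 (0) for SW, 5 (3) for species and water and 2 (1) for species and age, and without FW replicates 1 and 2 there 0 (3) and 0 (1) for the 2 interactions. Without SW replicates 1 and 2 of An. coluzzii at 66 h the count for species and water was 0 (3). Without FW replicates 3 and 4 of An. merus at 66 h they were 0 (1) for SW, 0 (3) for species and water and 1 (2) for age and water; without FW replicates 1 and 2 they were 2 (6) for age and 2 (1) for species and age. With single libraries left out, counts ran from 0 to 2 for SW in An. merus at 66 h, from 0 to 3 for SW in An. coluzzii at 18 h, from 1 to 2 and from 3 to 5 between species at 18 h in FW and in SW, from 3 to 6 for age in An. merus, from 1 to 4 for species and water at 66 h and from 0 to 2 for species and age. Except where fewer libraries or units are the setting itself, the cause was not tested. Over all tested genes edgeR called 300 for species and age, against 563 in limma, and 4 for age and water in An. coluzzii, against 8. No paired analysis was possible because the labels number libraries across the series and give the groups no shared replicate numbers. PPO7 and PPO8 in An. merus at 18 h and PPO8 in An. coluzzii at 18 h rest on few reads, which limits their precision.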
